A study of Homo sapiens with 11 samples.

Results

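Transcripts of 9 target genes of the tumor suppressor p53 were followed in RWPE1 cells during hypoxia: MDM2, TP53I3, ZMAT3, RRM2B, FAS, TIGAR, GDF15, FDXR and BTG2. They were taken by gene symbol from a table of 60676 Ensembl genes, and each of the 9 passed the filter on low counts. The genes did not move as a group. GDF15, a secreted stress cytokine, was the 1 member that fell at 6, 12 and 24 h of hypoxia. TIGAR and BTG2 rose at 6 h and fell at 24 h, ZMAT3 and RRM2B were at their lowest at 24 h, and FAS and TP53I3 passed the main test at no time.

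p53 is a transcription factor that is held at a low level by the ubiquitin ligase MDM2, itself a p53 target, and that accumulates after DNA damage and other stress. Its targets include genes for cell cycle arrest, apoptosis, DNA repair and metabolism, and many of them also answer to other factors. RWPE1 is a non-tumorigenic line of human prostate epithelium immortalized with HPV-18, and the E6 protein of this virus directs p53 to degradation. Only RNA was measured here, so nothing is known from these data of the p53 protein.

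The 11 libraries came from untreated cells in normoxia (3 libraries) and from cells kept in 1% oxygen for 6 h (3), 12 h (3) or 24 h (2). The medium of the hypoxic cells also held 10 mM HEPES, a pH buffer, so the effects of oxygen and buffer cannot be told apart. The sources speak of triplicate cultured cell samples without saying that these were independent experiments, so the p-values measure the spread between samples, which may be technical. The other 24 h library of the triplicate was not analysed here.

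Promoter sequence is shown for 6 members because the results below turn on genes listed as targets of the same regulator that did not share a course. Whether p53 acted on them in these cells was not tested. The windows are the last 150 bases before a RefSeq transcription start (GRCh38.p14), printed 5′ to 3′ on the strand of the gene. Capitals mark a p53 site or half-site, and in TIGAR the core of the hypoxia-inducible factor (HIF) element.

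MDM2, chr12:68808867-68809016, plus strand: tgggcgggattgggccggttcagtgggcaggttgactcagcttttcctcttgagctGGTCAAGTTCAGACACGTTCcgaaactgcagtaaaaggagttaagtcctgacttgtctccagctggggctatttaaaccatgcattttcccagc
FAS, chr10:88991281-88991430, plus strand: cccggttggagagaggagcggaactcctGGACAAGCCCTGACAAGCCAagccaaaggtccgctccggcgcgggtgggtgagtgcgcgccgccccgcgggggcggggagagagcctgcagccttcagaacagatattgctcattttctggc
FDXR, chr17:74872995-74873144, minus strand: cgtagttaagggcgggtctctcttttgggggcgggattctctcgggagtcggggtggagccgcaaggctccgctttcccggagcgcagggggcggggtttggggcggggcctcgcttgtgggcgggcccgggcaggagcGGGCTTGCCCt
TIGAR, chr12:4321063-4321212, plus strand: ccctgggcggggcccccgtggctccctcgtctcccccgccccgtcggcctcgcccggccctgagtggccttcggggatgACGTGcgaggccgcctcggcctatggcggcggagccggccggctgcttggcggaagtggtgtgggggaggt
GDF15, chr19:18386008-18386157, plus strand: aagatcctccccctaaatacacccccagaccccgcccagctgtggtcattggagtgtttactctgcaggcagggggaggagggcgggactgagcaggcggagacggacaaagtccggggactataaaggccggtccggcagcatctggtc
BTG2, chr1:203305369-203305518, plus strand: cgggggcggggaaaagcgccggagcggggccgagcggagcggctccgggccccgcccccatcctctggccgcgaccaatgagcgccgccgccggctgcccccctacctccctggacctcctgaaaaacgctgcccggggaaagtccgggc

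A p53 site is a pair of 10-base half-sites. The search took adjoining half-sites with at most 2 mismatches over the pair, and none at the core C and G of either half-site. Any site outside this rule was left in lower case. Such a site lay in 3 of 15 windows, from MDM2 and FAS, against 0.242% of 35116 promoters searched over the same 250 bases before the start. The 2 MDM2 windows among them overlap and hold the same site. As the definition was set after these sequences were seen, the contrast is a description and not a test. The sequences printed for MDM2 and FAS lie in the intron after exon 1 of the canonical transcript, at an inner start, and the other 4 lie upstream of the transcript. A half-site with no mismatch was present in 2 of 15 windows, from FAS and FDXR, against 5.57% of promoters. The HIF core, ACGTG or GCGTG on either strand, was found within the 250 bases of 5 of 15 windows, against 43.2% of promoters. These came from MDM2 (the same 2 overlapping windows), FAS, TIGAR and ZMAT3. In FAS the cores lie upstream of the printed bases. In MDM2 the core, read as CACGT, lies within the capitals of the p53 site. No motif was found in the windows of GDF15 and BTG2, which says only that these letters are not in these windows. RRM2B had no window.

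Library totals ran from 27496009 to 49488345 counts, and TMM factors from 0.539 in 24 h replicate 2 to 1.32 in the normoxic replicate 2. In edgeR the biological coefficient of variation was 19.6%. Over log2 CPM (counts scaled to a common library total) the 24 h pair lay 139.9 apart, whereas libraries of another group were at most 87.1 apart, and results that rest on 24 h replicate 2 are therefore also given without it. The 5 basal epithelial markers summed to 11833.8 to 15216.5 CPM in normoxia. Of 11 markers of fibroblasts, leukocytes and endothelium only COL1A1 reached a group mean of 0.3 CPM. With it the 5 fibroblast markers summed to 47.1 to 60.6 CPM in normoxia. COL1A1 was below normoxia in all 8 hypoxic libraries, as were 25.0% of all tested genes. A gene on the same strand overlaps 81.6% of the exonic bases of the leukocyte marker CD68, so its reads could have been assigned otherwise. In hypoxia 3, 4 and 4 of the 5 basal markers were called higher at the 3 times and TP63 lower, and their sum ran from 19244 CPM at 6 h to 56521.5 CPM at 24 h. Of all tested genes, 25.1%, 24.2% and 29.9% were called higher and 27.7%, 27.1% and 31.3% lower. These shares also stand beside the luminal counts that follow. Luminal markers summed to 231 to 262 CPM in normoxia and to at most 1799 CPM at 24 h, with 3, 3 and 2 of 4 tested called higher and ACP3 lower, while KLK3 was at 0 in every library. The part of these markers in the results below was not tested. In bulk RNA, fewer cells of a kind and less RNA per cell cannot be told apart.

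A call below means a Benjamini-Hochberg adjusted p under 0.05 in edgeR's quasi-likelihood test of 19981 genes. At 6 h against normoxia 2 members were higher and 1 was lower, where 52.8% of all tested genes were called (25.1% higher and 27.7% lower). At 12 h the count was 0 higher and 3 lower, with 51.2% of all genes called (24.2% higher and 27.1% lower). At 24 h it was 1 higher and 5 lower, with 61.2% called (29.9% higher and 31.3% lower). These 3 comparisons share the normoxic libraries. The median log2 fold change of the members was -0.10, -0.41 and -0.76, beside -0.0021, -0.033 and -0.065 over all tested genes.

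From 6 to 12 h 1 member was called, BTG2, which was lower (4.95% of all genes called, 1.88% higher and 3.07% lower). From 12 to 24 h FDXR was higher and ZMAT3 and TIGAR were lower (28.4% called, 15.1% higher and 13.3% lower). At 12 h the count was 1 without any one of the normoxic libraries and 5 without either 24 h library. At 24 h it was 0 higher and 6 lower without replicate 2, and 2 higher and 4 lower without replicate 1. With scaling by library size alone the median of all genes was -0.32, -0.50 and -0.97 at the 3 times. The members then split 1 to 2, 0 to 7 and 0 to 7 between higher and lower.

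**Figure D1:**
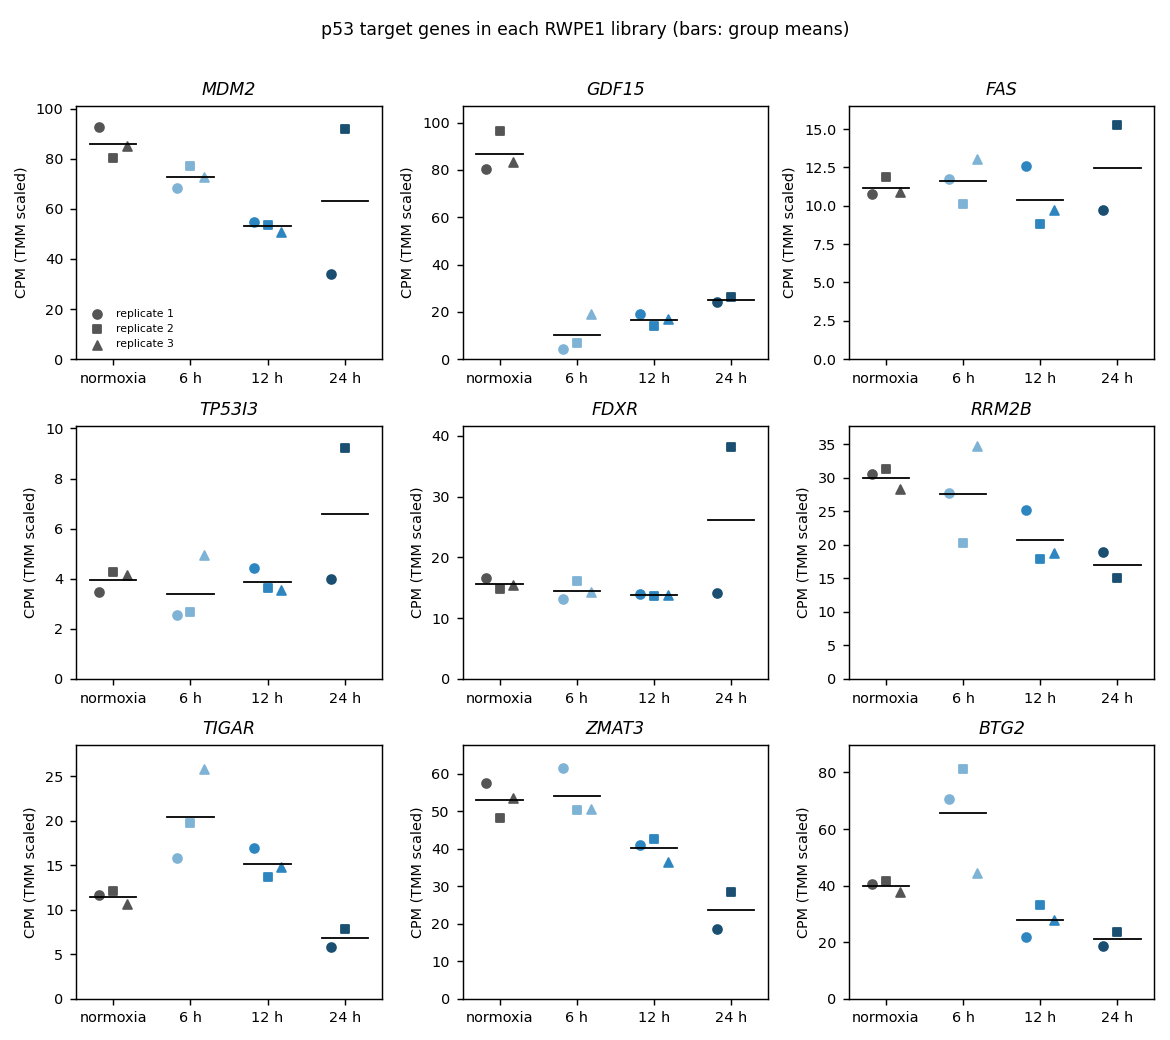
Level of each of the 9 genes (CPM with TMM scaling, linear axes from 0) in the 11 libraries, with symbols for replicates 1 to 3 and a bar at the group mean. GDF15 fell from 80.2 to 96.5 CPM in normoxia to between 4.37 and 26.3 CPM in the 8 hypoxic libraries, and the 24 h pair stood apart in MDM2, TP53I3, FAS and FDXR.

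GDF15 (ENSG00000130513, chr19:18374731-18389176) encodes a cytokine that is released under many kinds of cell stress. It stood at 80.2, 96.5 and 83.3 CPM in normoxia. After 6 h it was at 4.37, 6.94 and 19.0 CPM, after 12 h at 19.1, 14.0 and 17.0 CPM, and after 24 h at 24.0 and 26.3 CPM. Each hypoxic library lay below each normoxic library, a pattern seen in 25.0% of all tested genes, and no member had each hypoxic library above (20.5%). The log2 fold changes were -3.08 (standard error 0.40, edgeR adjusted p = 5.6e-05) at 6 h, -2.38 (0.39, 0.00037) at 12 h and -1.78 (0.45, 0.0040) at 24 h, and 17.9% of all genes were called lower at every time.

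Among hypoxic libraries GDF15 was lowest in replicates 1 and 2 of 6 h. The difference between 12 and 6 h was 0.71 (edgeR adjusted p = 0.32) and that between 24 and 12 h was 0.59 (0.31). Without 6 h replicate 3, the highest of its group, the first of these was 1.56 with an edgeR adjusted p of 0.0056, and the second 0.59 with 0.046.

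MDM2 (ENSG00000135679, chr12:68808177-68845544), the ligase that closes the feedback loop on p53, stood at 92.5, 80.2 and 84.9 CPM in normoxia. It was at 68.2, 77.2 and 72.9 CPM after 6 h and at 54.8, 53.7 and 50.6 CPM after 12 h, so that both groups lay below normoxia without overlap, and the 12 h libraries below those of 6 h. At 24 h the pair was split, with 34.1 and 91.9 CPM. MDM2 fell by 0.70 (standard error 0.26, edgeR adjusted p = 0.037) on the log2 scale at 12 h. Its change was -0.24 (0.25, 0.45) at 6 h and -0.45 (0.29, 0.19) at 24 h.

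The 12 h call of MDM2 was lost without any one library of normoxia, 6 h or 12 h, with edgeR adjusted p from 0.051 to 0.0999. At 24 h the log2 fold change was -1.35 (edgeR adjusted p = 9.5e-06) without replicate 2 and 0.04 (0.79) without replicate 1, and with no filter on low counts it was -0.57 (0.019). The 6 h change passed the test under 4 of 20 other settings, with edgeR adjusted p from 0.025 to 0.037. Of the exonic bases of MDM2, 11.05% overlap genes on the other strand, and the strand setting of the counting is not stated.

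FAS (ENSG00000026103, chr10:88953813-89029605), the death receptor that binds FAS ligand, was between 8.80 and 15.3 CPM in all 11 libraries, and normoxia (10.8 to 11.9 CPM) lay inside that range. Its log2 fold changes of 0.06, -0.11 and 0.16 had edgeR adjusted p of 0.82, 0.67 and 0.55. TP53I3 (ENSG00000115129, chr2:24077433-24085861), a quinone oxidoreductase linked to oxidative stress in p53-driven apoptosis, was between 2.56 and 4.95 CPM in 10 libraries and at 9.21 CPM in 24 h replicate 2. At 24 h its log2 fold change was 0.73 (standard error 0.35, edgeR adjusted p = 0.087), and -0.01 without that library. Without 24 h replicate 1 the change of TP53I3 was 1.16 (edgeR adjusted p = 0.0065), and with library size alone FAS was called lower at 12 h (-0.58, edgeR adjusted p = 0.014) and 24 h (-0.83, 0.0028). Both genes thus overlapped normoxia at each time.

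FDXR (ENSG00000161513, chr17:74862497-74873031) encodes the mitochondrial ferredoxin reductase, which passes electrons from NADPH to ferredoxin. It stood at 16.5, 14.8 and 15.5 CPM in normoxia, at 13.2, 16.2 and 14.3 CPM after 6 h and at 13.9, 13.6 and 13.8 CPM after 12 h. After 24 h the values were 14.2 and 38.1 CPM, 1 below and 1 far above normoxia. FDXR was called higher at 24 h, by 0.74 (standard error 0.29, edgeR adjusted p = 0.041) on the log2 scale, and higher at 24 than at 12 h by 0.92 (0.29, 0.032). Without 24 h replicate 2 these were -0.16 (edgeR adjusted p = 0.42) and 0.02 (0.94), so both calls rest on 1 library. By limma-voom they were 0.55 (limma adjusted p = 0.12) and 0.72 (0.090). With library size alone they were -0.33 (edgeR adjusted p = 0.19) and 0.32 (0.27).

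TIGAR (ENSG00000078237, chr12:4307763-4360028) is a phosphatase that lowers fructose-2,6-bisphosphate and thereby glycolytic flux. Its levels were 11.6, 12.1 and 10.7 CPM in normoxia, 15.8, 19.7 and 25.8 CPM after 6 h, 16.9, 13.7 and 14.8 CPM after 12 h, and 5.78 and 7.79 CPM after 24 h. The 6 and 12 h libraries all lay above normoxia and the 24 h libraries below it. TIGAR rose by 0.84 (standard error 0.19, edgeR adjusted p = 0.0027) on the log2 scale at 6 h. At 12 h the change was 0.40 (0.19, 0.095), and at 24 h TIGAR fell by 0.76 (0.22, 0.010).

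The fall of TIGAR from 12 to 24 h, by 1.16 (standard error 0.23, edgeR adjusted p = 0.0042), is the largest of the members between these times, but the call was lost with sample quality weights (limma adjusted p = 0.14) and with only these 2 groups fitted (edgeR adjusted p = 0.066). The 24 h call against normoxia was lost without 24 h replicate 1 (-0.61, edgeR adjusted p = 0.055) and with sample quality weights (limma adjusted p = 0.19). A gene on the same strand, ENSG00000285901, overlaps 18.12% of the exonic bases of TIGAR, so part of its reads could have been assigned otherwise.

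ZMAT3 (ENSG00000172667, chr3:178960121-179072215), a zinc finger protein that binds RNA and regulates splicing and stability, stood at 57.7, 48.2 and 53.6 CPM in normoxia and at 61.7, 50.5 and 50.6 CPM after 6 h, where the groups overlapped. It was at 41.2, 42.7 and 36.5 CPM after 12 h and at 18.7 and 28.4 CPM after 24 h, with every library below normoxia. ZMAT3 fell by 1.17 (standard error 0.19, edgeR adjusted p = 0.00021) on the log2 scale at 24 h and by 0.77 (0.19, 0.011) from 12 to 24 h. At 12 h the change was -0.41 (0.16, 0.054), which passed the test under 8 of 20 other settings. The call between 12 and 24 h was lost with sample quality weights (limma adjusted p = 0.19) and with only these 2 groups fitted (edgeR adjusted p = 0.078).

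RRM2B (ENSG00000048392, chr8:102204502-102238961), the small subunit of ribonucleotide reductase that supplies deoxynucleotides outside S phase, had 30.5, 31.3 and 28.3 CPM in normoxia. After 6 h it had 27.8, 20.4 and 34.7 CPM, on both sides of normoxia. All values after 12 h (25.3, 17.96 and 18.8 CPM) and after 24 h (18.9 and 15.1 CPM) were below it. RRM2B fell by 0.54 (standard error 0.20, edgeR adjusted p = 0.036) on the log2 scale at 12 h and by 0.82 (0.23, 0.0077) at 24 h. The 12 h call was lost without any one normoxic library or without replicate 2 or 3 of 12 h, with edgeR adjusted p from 0.060 to 0.12, and the 24 h call with sample quality weights (limma adjusted p = 0.14).

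BTG2 (ENSG00000159388, chr1:203305491-203309602), an antiproliferative protein that recruits the CCR4-NOT deadenylase to mRNA, stood at 40.6, 41.6 and 37.8 CPM in normoxia. After 6 h it was higher in each library, with 70.5, 81.4 and 44.6 CPM. After 12 h (21.99, 33.3 and 27.8 CPM) and 24 h (18.8 and 23.6 CPM) it was lower in each library. BTG2 rose by 0.71 (standard error 0.21, edgeR adjusted p = 0.013) on the log2 scale at 6 h and fell by 0.92 (0.25, 0.0062) at 24 h, while the change at 12 h was -0.53 (0.21, 0.053) and passed the test under 13 of 20 other settings.

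Between 6 and 12 h BTG2 fell by 1.24 (standard error 0.21, edgeR adjusted p = 0.010), and it was the 1 member called between these times. The rise at 6 h was lost without normoxic replicate 3 (edgeR adjusted p = 0.052) or 6 h replicate 2 (0.071), and the fall from 6 to 12 h without 6 h replicate 2 (0.056) or 12 h replicate 3 (0.066). With library size alone the 6 h change was 0.39 (edgeR adjusted p = 0.19), and with sample quality weights the 24 h call was lost (limma adjusted p = 0.11).

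**Figure D2:**
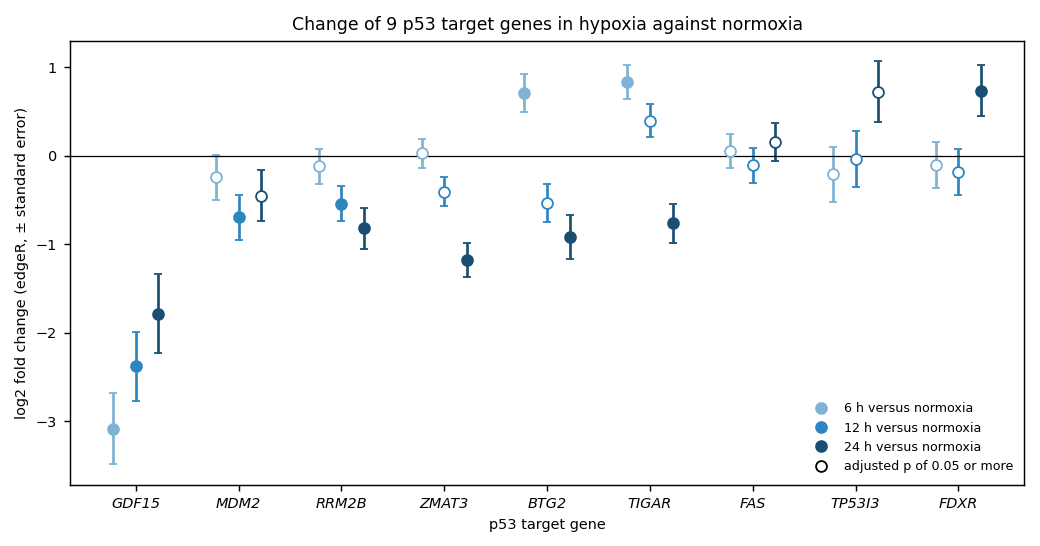
log2 fold change of each gene against normoxia at 6, 12 and 24 h (y axis, from edgeR with all 11 libraries), with bars of 1 standard error and open symbols where the adjusted p was 0.05 or more. GDF15 alone has 3 filled symbols below 0 (-3.08, -2.38 and -1.78), and TIGAR and BTG2 change sign between 6 h (0.84 and 0.71) and 24 h (-0.76 and -0.92).

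Libraries did not overlap with normoxia in 4 of 9 members at 6 h, 7 at 12 h and 5 at 24 h, where the share over all tested genes was 69.6%, 72.3% and 73.0%. From 6 to 12 h 3 members were apart (31.6% of all genes), and from 12 to 24 h 4 were (49.1%). Exact two-sided permutation tests on log2 CPM were run for all 9 members, and within each comparison those that overlapped had larger p than those apart. For the members apart, the permutation tests gave p = 0.1 at 6 and 12 h and p = 0.2 at 24 h. These are the smallest values that 3 against 3 and 3 against 2 libraries allow. Libraries that do not overlap always give them, so the tests add nothing to the counts above.

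Per kilobase of the canonical transcript, GDF15 had the highest level in normoxia, 72.2 CPM per kb, followed by BTG2 (14.7), MDM2 (11.5), FDXR (8.46), RRM2B (6.29), ZMAT3 (5.95), FAS (3.02), TP53I3 (2.40) and TIGAR (1.40). Of neighbours in this order, RRM2B and ZMAT3 overlapped between libraries and the rest did not. After 6 h BTG2 was first, with 24.0 CPM per kb, and GDF15, with 8.42, stood behind MDM2 (9.71), where it overlapped MDM2 and FDXR (7.88). After 24 h GDF15, with 21.0 CPM per kb, overlapped FDXR (14.2) at the top, and TIGAR was last, with 0.826.

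As a description over the 11 libraries, which share the 4 groups and their depth, Pearson's r of log2 CPM between members ran from -0.61 for TP53I3 and BTG2 to 0.78 for ZMAT3 and BTG2, and was also 0.78 for TP53I3 and FDXR. Among 13938 candidates, the gene most like a member was TSPAN4 for FDXR (0.98), CANT1 for BTG2 (0.98), LRRC8B for ZMAT3 (0.98), SNORC for MDM2 (0.96), STK38L for RRM2B (0.95), HS6ST1P1 for TIGAR (0.95), FAS having BEX2 (0.95) and TP53I3 having STARD3 (0.95). None of these was another p53 target of the lists used here.

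TP63, which encodes the p53 relative that marks basal epithelium, fell from 259, 218 and 248 CPM in normoxia to between 67.0 and 143 CPM in the 8 hypoxic libraries, with log2 fold changes of -1.72, -0.95 and -1.50 (edgeR adjusted p = 5.4e-06, 0.00040 and 2.7e-05). Each hypoxic library was below each normoxic one.

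TP73, another relative, was at 5.80, 5.14 and 6.16 CPM in normoxia and at 1.33, 2.69 and 0.87 CPM after 6 h, a change of -1.83 (edgeR adjusted p = 0.0010). It was not called at 12 h (-0.13) or 24 h (-0.41), and it was named after its values were seen. MDM4, the partner of MDM2 that blocks p53's transactivation domain, fell from 71.7, 87.1 and 71.8 CPM to 27.3, 32.4 and 32.7 CPM after 6 h. Its log2 fold changes were -1.32, -0.51 and -1.07 (edgeR adjusted p = 9.6e-05, 0.034 and 0.00090), and the 12 h call was lost without any one normoxic library or without 12 h replicate 1 or 3, with edgeR adjusted p from 0.052 to 0.12.

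Of the 20 family members and regulators, 6, 5 and 7 were higher and 6, 4 and 7 lower at 6, 12 and 24 h, where 52.8%, 51.2% and 61.2% of all tested genes were called. ATR, a kinase that signals stalled replication to p53, fell by 1.31, 0.92 and 1.70 (edgeR adjusted p = 0.00038, 0.0043 and 0.00016). DAXX, a histone chaperone that binds MDM2, rose by 1.36, 1.20 and 1.23 (edgeR adjusted p = 1.0e-05, 3.4e-05 and 2.7e-05), where the 24 h value was 0.36 (0.21) with library size alone. RPL5, a ribosomal protein that binds MDM2, rose by 0.61, 1.07 and 2.46 (edgeR adjusted p = 0.034, 0.0018 and 6.4e-06), and its 6 h call was lost without any one library of normoxia or 6 h, with edgeR adjusted p from 0.053 to 0.098.

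**Figure D3:**
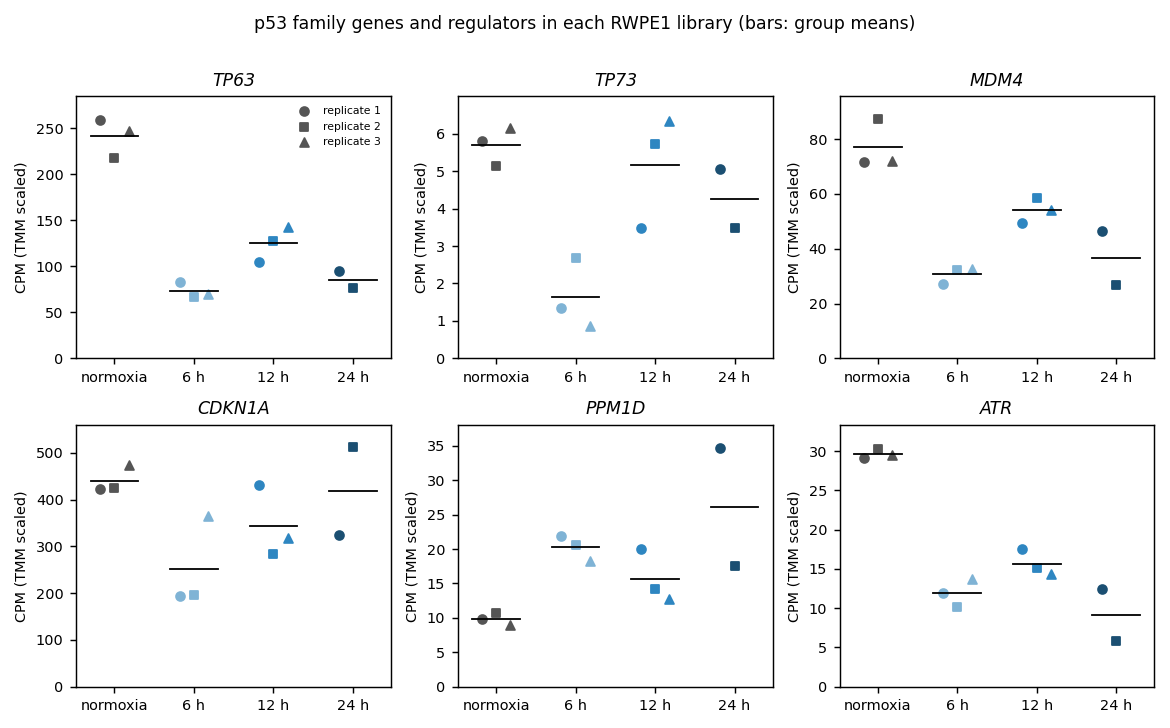
Level of TP63, TP73, MDM4, CDKN1A, PPM1D and ATR (CPM with TMM scaling, linear axes from 0) in each library, with symbols for replicates and a bar at the group mean. TP63 was lower in each of the 8 hypoxic libraries than in normoxia, and CDKN1A overlapped normoxia at 12 and 24 h.

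Another 40 p53 target genes went both ways. At 6 h 14 were higher and 19 lower, at 12 h 9 and 14, and at 24 h 13 and 14, beside 25.1% and 27.7%, 24.2% and 27.1%, and 29.9% and 31.3% of all tested genes. Their medians were -0.015, -0.23 and 0.0076. Across all 3 times 8 were called higher and 11 lower, where 14.8% and 17.9% of all tested genes were. With library size alone the split was 7 to 19, 4 to 25 and 4 to 24. CDKN1A, which encodes the p21 inhibitor of cyclin-dependent kinases, had 422, 425 and 475 CPM in normoxia and 193, 197 and 365 CPM after 6 h, a fall of 0.81 (edgeR adjusted p = 0.020). It was not called at 12 h (-0.35) or 24 h (-0.08), and the 6 h call was lost without normoxic replicate 3 (0.061), 6 h replicate 1 (0.0884) or 6 h replicate 2 (0.092).

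Among targets called one way at every time, the highest averages over the 3 times were those of SERTAD1, a transcriptional coregulator, with log2 fold changes of 2.53, 2.25 and 2.58 (edgeR adjusted p = 6.2e-06, 1.8e-05 and 6.2e-06), and SFN, the 14-3-3 sigma protein of the G2 checkpoint, with 1.82, 1.66 and 2.001 (0.00023, 0.00053 and 0.00015). The 24 h value of SFN was 1.07 without 24 h replicate 2. The lowest averages were those of TP53INP1, which promotes autophagy and cell death, with -1.82, -2.44 and -3.77 (edgeR adjusted p = 0.00049, 9.7e-05 and 1.7e-05), and the nucleotide excision repair gene XPC with -2.53, -1.96 and -2.96 (2.1e-06, 1.3e-05 and 2.6e-06). Of the exonic bases of XPC 24.59% overlap other genes on the opposite strand. SERTAD1 went from 8.76, 7.78 and 8.13 CPM to between 28.6 and 56.5 CPM, and XPC from 16.4, 18.3 and 17.2 CPM to between 1.74 and 4.52 CPM.

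**Figure D4:**
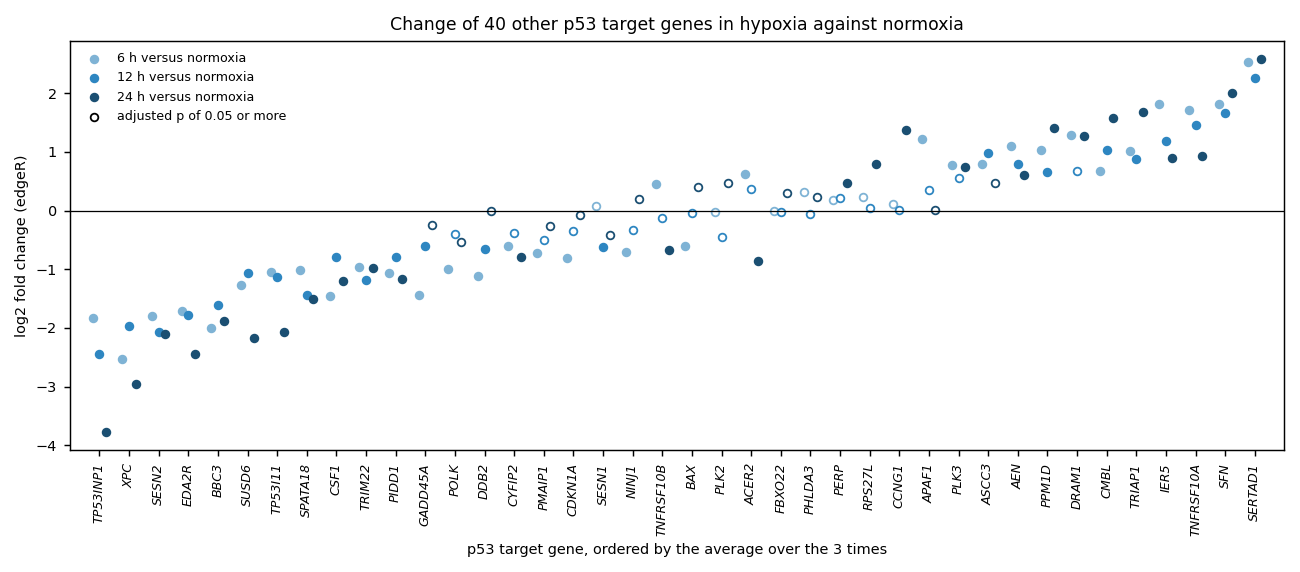
log2 fold change against normoxia (y axis, from edgeR) of 40 other p53 target genes at 6, 12 and 24 h, ordered by the average over the times, with open symbols where the adjusted p was 0.05 or more. They run from TP53INP1 (-1.82, -2.44 and -3.77) to SERTAD1 (2.53, 2.25 and 2.58), with genes on both sides of 0 at each time.

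Several members are also induced by factors of other stress pathways, among them ATF4 and DDIT3 (CHOP) of the integrated stress response, which act on GDF15, and EGR1. Of 5 such regulators 0, 0 and 1 were higher and 3, 3 and 2 lower at the 3 times. Of all tested genes 25.1%, 24.2% and 29.9% were higher and 27.7%, 27.1% and 31.3% lower. ATF4 stood at 204, 216 and 212 CPM in normoxia, 153, 176 and 169 CPM after 6 h, 246, 199 and 222 CPM after 12 h, and 417 and 314 CPM after 24 h. It was not called at 6 h (-0.34) or 12 h (0.08), and at 24 h it rose by 0.79 (edgeR adjusted p = 0.0010), and it was named after its values were seen. DDIT3, 31.6% of whose exonic bases overlap genes on the other strand, had 81.4, 115 and 89.1 CPM in normoxia and 1.78, 1.82 and 1.38 CPM after 6 h, then 4.43, 11.6 and 18.5 CPM after 12 h and 15.1 and 13.5 CPM after 24 h. Its log2 fold changes were -5.85, -3.03 and -2.73 (edgeR adjusted p = 1.2e-06, 4.8e-05 and 0.00018). EGR1 fell by 1.07, 0.88 and 2.23 (edgeR adjusted p = 0.013, 0.035 and 0.00038). Its 12 h call was lost without any one normoxic library or 12 h replicate 1 or 3 (edgeR adjusted p from 0.054 to 0.14). Its 6 h call was lost without 6 h replicate 1 (edgeR adjusted p = 0.058) or 3 (0.053), and its 24 h call with sample quality weights (limma adjusted p = 0.068).

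Genes that work with the members were measured as well: 13 of 16 passed the filter, and 6, 5 and 5 were higher and 1, 2 and 2 lower, where 52.8%, 51.2% and 61.2% of all tested genes were called. PFKFB4 and PFKFB3, kinases that make the fructose-2,6-bisphosphate which TIGAR removes, rose at each time, PFKFB4 by 2.96, 3.13 and 3.47 (edgeR adjusted p = 5.5e-07, 6.3e-07 and 4.0e-07) and PFKFB3 by 2.97, 3.01 and 2.47 (3.0e-06, 4.4e-06 and 9.8e-06). PFKFB3 went from 56.2, 55.3 and 62.1 CPM to between 252 and 553 CPM. CASP8, the caspase that FAS recruits, fell by 0.73, 0.57 and 0.92 (edgeR adjusted p = 0.0033, 0.014 and 0.0015), and the 12 h call was lost without 12 h replicate 1 (0.055). Each of 12 HIF targets was called higher at each time, where 14.8% of all tested genes were. Their median log2 fold changes were 2.81, 2.92 and 3.91, EGLN3 and SLC2A3 standing highest (averages of 6.48 and 4.43). This list was chosen with earlier results of these data known, so it is no independent check of the hypoxia.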

How the data were processed

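RNA from RWPE1 cells was sequenced as stranded, single-end libraries. The authors trimmed the reads with Trimmomatic, aligned them with STAR to GRCh38 (Ensembl annotation) and deposited raw featureCounts counts per gene, neither filtered nor normalized. The strand setting and the handling of multiply matching reads are not given in the sources used here, which could move counts of overlapping genes. Totals were 27496009 to 49488345 counts per library, and no column was left unassigned.

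Of 60676 genes, 19981 passed filterByExpr at its defaults by time point (at least 10 counts, 15 in total). edgeR's quasi-likelihood test (TMM factors, all 11 libraries, a mean per time point) gave log2 fold changes, and p-values were adjusted over these genes by Benjamini-Hochberg. The standard error is the absolute fold change over the square root of F. The authors used limma-voom, run here as an alternative beside sample quality weights, DESeq2, 2 other scalings, 2 other filters, a fit of only the groups compared, a replicate block, and each library left out. log2 CPM used a prior count of 2. On simulated counts with 189 changed genes among 19160, edgeR found 132, 124 and 91 of the changed genes at 6, 12 and 24 h and falsely called 10, 10 and 2 others. For log2 changes of size 1 it called 51, 42 and 20 of 94, and for size 2 it called 81, 82 and 71 of 95. The simulation gave each gene the same spread in every group and changed far fewer genes than were called here. These rates may therefore not carry over to the data.

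Symbols, positions and lengths came from GENCODE 44 on GRCh38, in which 60357 identifiers were found, and promoters from RefSeq. Named genes are the 9 members, TP63, MDM4, CDKN1A, for each other list the 2 highest and 2 lowest averages among genes called one way at every time with a mean of at least 1 CPM, and the gene most correlated with each member, apart from items not reported here. Members and lists were chosen with earlier results of these data known, and the definition of a p53 site after the sequences were seen. The tools were DESeq2 1.42.0, limma 3.58.1 and edgeR 4.0.16 in R 4.3.3, with pandas 2.3.3 and matplotlib 3.10.9 in Python 3.11.15.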

Additional observations from a re-analysis of the deposited data

Results flagged for a closer look

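In 4 members the change against normoxia differed between successive times by edgeR's quasi-likelihood test of the difference. BTG2 was lower at 12 h than at 6 h by a log2 fold change of -1.24. TIGAR (-1.16) and ZMAT3 (-0.77) were lower at 24 h than at 12 h, though both calls were lost with sample quality weights (limma adjusted p = 0.14 and 0.19) and with only these 2 groups fitted (edgeR adjusted p = 0.066 and 0.078). FDXR was higher at 24 h than at 12 h (0.92), and this difference was 0.02 without 24 h replicate 2.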

How the results depend on the processing

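GDF15 was called lower at 6, 12 and 24 h, and TIGAR higher at 6 h and ZMAT3 lower at 24 h, under each of the 20 alternatives. Of 900 fold changes of the members under alternatives, 776 kept their direction and their side of the threshold, 50 lost the call, 48 gained one and 26 changed sign. The number of members called was 3, 3, 6, 1 and 3 at 6, 12 and 24 h against normoxia, 12 against 6 h and 24 against 12 h. At 12 h it was 5 by limma-voom, by DESeq2 and with at least 10 counts in every library, 6 with sample quality weights or with only the 2 groups fitted, and 7 with library size alone. Sample quality weights gave 2 at 24 h, 5 for 12 against 6 h and 0 for 24 against 12 h, where 1093 genes were called and 4052 had an unadjusted p under 0.05. Fitting only the 2 groups gave 2 for 12 against 6 h and 0 for 24 against 12 h, where 0 of 17807 genes were called and 5671 had an unadjusted p under 0.05, and no filter gave 2 for 12 against 6 h. With 1 library left out, the ranges were 2 to 4, 1 to 5, 5 to 6, 0 to 3 and 2 to 5. Where 1 library stood for 24 h it was assumed to vary like the other groups.

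Signs changed with library size alone for ZMAT3 (-0.29) and FAS (-0.26) at 6 h, TIGAR at 12 h (-0.073), TP53I3 (-0.31), FAS (-0.83) and FDXR (-0.33) at 24 h, and MDM2 (-0.35), FAS (-0.25) and CDKN1A (-0.23) for 24 against 12 h. ZMAT3 at 6 h was -0.022 with quality weights, -0.013 with no filter and -0.059 with 10 counts in every library, where FAS was -0.028. Log2 fold changes that changed sign with 1 library left out ran, at 6 h, from -0.071 to 0.085 for ZMAT3, -0.32 to 0.062 for RRM2B and -0.032 to 0.15 for FAS. The range of TP53I3 was -0.14 to 0.028 at 12 h. At 24 h the ranges, set by the 24 h libraries, were -1.35 to 0.042 for MDM2, -0.013 to 1.16 for TP53I3, -0.22 to 0.39 for FAS, -0.16 to 1.23 for FDXR and -0.47 to 0.16 for CDKN1A. For 12 against 6 h FDXR ran from -0.14 to 0.0039, and for 24 against 12 h MDM2 ran from -0.65 to 0.77, FAS from -0.11 to 0.53 and CDKN1A from -0.10 to 0.55. For these changes the cause was not tested.

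No pairing by replicate number was visible: the deviations of 15 same-numbered pairs correlated from -0.16 to 0.21, 2 of them over 0.1. Of 11 libraries, 4 correlated best with their own number. Deviations from a group mean sum to 0 within the group, so this cannot decide whether the samples were paired by design. With the replicate block 3, 4, 5, 1 and 2 members were called, and CDKN1A at 24 h was 0.030. Among the 40 other targets the count for 24 against 12 h was 7 with the block against 12, and 17 at 24 h with quality weights against 27. The 24 h group has only 2 libraries, which limits the precision of its comparisons.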
